A study of Mus musculus with 21 samples.

Results

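Single-nucleotide variants (SNVs) inside annotated repeats, but outside segmental duplications, were taken from the variant lists of 10 mouse embryonic stem cell (ESC) libraries. A site was included where the deposited repeat annotation was filled and the deposited segmental duplication annotation was empty in any of the 10 lists. This gave 578 of the 4358 distinct ESC sites, with 1794 calls. Of the remaining sites, 1688 lay outside both annotations, here called unique sequence, and 2092 in segmental duplications.

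The series asked how the genome fares in ESCs of the strain written C57BL6X129S6F1 when they are cultured in 5 ways, with 2 libraries of captured exome DNA per condition, numbered 3 and 5. SL was KO-DMEM medium with 15% serum and LIF (1000 IU), on feeder cells. The other media were N2B27 with the same LIF and the GSK3 inhibitor CHIR99021 (3 µM): 2iL added the MEK inhibitor PD0325901 (1 µM), A2iL the Src inhibitor CGP77675 (1.5 µM), and LCDM the additives written Dim and Mih (2 µM each), all on feeder cells. 2iL-F was the 2iL medium without feeders. All 10 lists were made against 1 control, mouse embryonic fibroblast (MEF) DNA of the same strain name, so every comparison shares it. The libraries also share sites, so tests that compare sets of calls over the 10 libraries do not rest on independent values. What the numbers 3 and 5 stand for, and whether the libraries of a condition came from separate cultures or clones, is not stated in the labels, so p-values measure the spread between these libraries, which may be technical.

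The lists held 1762 to 1858 calls at a median depth of 54 to 72 reads, with at least 2 alternative reads behind each call. The smallest gap between neighbouring calls of a list was 10017 to 10033 bp, so a list held at most 1 call in 10 kb. A site can therefore be missing from a library where another base nearby was kept. Alternative-allele fraction means the share of reads with the variant base, as the files give it.

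Much of a mammalian genome consists of repeats. Simple repeats (microsatellites) are short units in tandem, and low-complexity tracts are stretches of biased composition. Both are known for length changes when the polymerase slips. LTR elements, LINEs and SINEs are copies of retrotransposons, which spread through an RNA intermediate and leave many similar copies, so that short reads can be hard to place. Exome capture targets coding exons, so most repeats are read only as flanking sequence.

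The sites with reference sequence at hand show what such a tract looks like. Among 32851 promoter windows of RefSeq (GRCm38.p6, 250 bases before to 50 after a gene's start), 3 genes had windows that held 4 of the sites, and the reference base matched at 4 of 4. The lines below give 30 bases each, on the strand of the gene, with the called bases in capitals. They are shown because each called base lies in or at the edge of an A or T run.
Vmn2r98, chr17:19053296-19053325, plus strand: tccatgtgaaaaaaAAaaaaaaaaaaaaaa
Dnlz, chr2:26352235-26352264, minus strand: cggtttttttttttTtttttttttttttac
Snhg17, chr2:158361650-158361679, minus strand: aacgtatcattgttTaaaaaaaaaaaaaaa

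Upstream of Vmn2r98, a vomeronasal receptor gene, a 25-base A run held 2 adjacent A>C calls, each private to its library. LCDM 3 had 2 of 5 reads at position 19053310 and A2iL 5 had 2 of 5 at 19053311 (exact 95% binomial interval 0.0527 to 0.853 for each). The MEF control had 0 of 8 reads at both bases, which allows a fraction of up to 0.375. In 2iL-F 3, the Dnlz site, in a 25-base run (A>C on the plus strand), had 4 of 16 reads (0.0727 to 0.524), against 0 of 32 control reads. The Snhg17 site, next to a 15-base A run on the gene's strand (A>T on the plus strand), had 3 of 20 reads (0.0321 to 0.379) in 2iL-F 3, against 0 of 21 control reads. Such intervals and limits cover counting error only. A run of at least 13 A or 13 T bases, searched on both strands, stood in 891 of the 32851 windows (2.71%). The length of 13 equals the shortest run after a called base in the lines above. These sites lie in simple or low-complexity repeats, so a tract of this kind could be foreseen from their annotation. A match is a description of these windows. No site overlapped a RefSeq miRNA hairpin.

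The repeat annotation gave a score, a running number for each element and a class, with no family name. Simple_repeat was the main class, with 344 sites (59.5%) in 322 elements and 87 to 111 calls per library. LTR followed with 83 sites (14.4%), SINE with 59 (10.2%), Low_complexity with 48 (8.30%) and LINE with 23 (3.98%). The small classes were Unknown with 8 sites, Satellite with 7, rRNA and DNA with 2 each, and RC and scRNA with 1 each. The gene named for both rRNA sites was Rn45s, the precursor of ribosomal RNA, although 1 of them was annotated as intronic. The RC site lay in the 3′ UTR of Oser1 and the scRNA site in that of Lrrc17. Simple_repeat and LTR together gave most calls in every library.

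**Figure D1:**
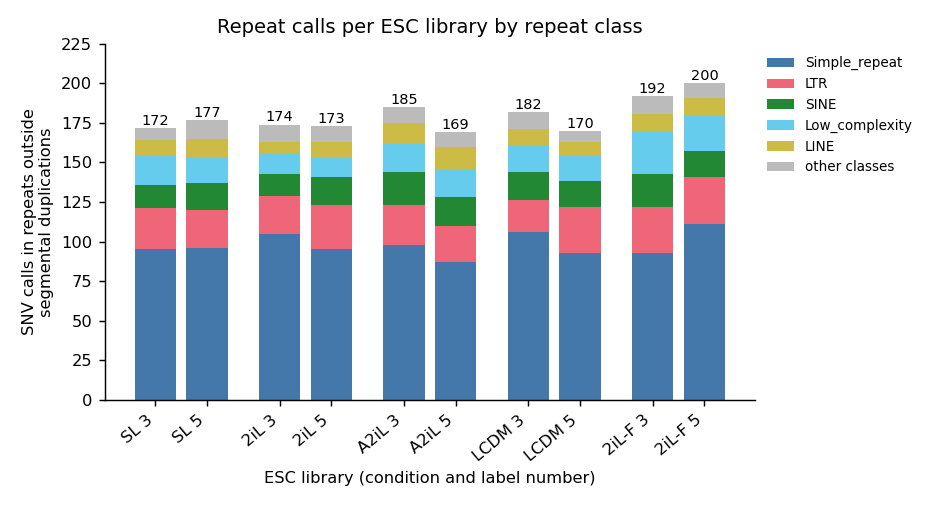
Calls in repeats outside segmental duplications for each of the 10 ESC libraries (x axis), stacked by repeat class as the files write it (y axis, number of calls). The totals, printed above the bars, run from 169 in A2iL 5 to 200 in 2iL-F 5, and Simple_repeat is the lowest and largest block of every bar.

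Most sites were intronic (388, 67.1%) or intergenic (131, 22.7%). Exonic sites numbered 18 (3.11%). Per library, 3.52 ± 1.08% of repeat calls were exonic, against 34.4 ± 1.43% in unique sequence, lower in repeats in 10 of 10 libraries (exact sign-flip permutation, two-sided, adjusted over 10 comparisons p = 0.00244). With most repeats read only as flanking sequence, this direction could be foreseen from the assay. A further 15 lay in 3′ UTRs, 1 in a 5′ UTR (Lbh), 11 in introns and 2 in exons of noncoding RNA, 6 downstream, 5 upstream and 1 both upstream and downstream of genes. The files named 395 genes, of which Sntg1, Lyst and Gm13177 had 3 sites each. Chromosomes 1 and 2 held the most sites (55 and 54) and the X chromosome the fewest (13), counts that were not divided by captured length.

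Classes differed in depth and fraction. LTR calls had a median depth of 32 reads and a median fraction of 0.204, whereas Simple_repeat calls had 12 reads and 0.333. SINE calls had 18 reads and 0.333, Low_complexity calls 13 and 0.4, LINE calls 58.5 and 0.2425, and Unknown calls 95.5 and 0.1265. Within libraries, the LTR median fraction was 0.206 ± 0.0372 and that of Simple_repeat 0.341 ± 0.0221 (SD, n = 10). LTR minus Simple_repeat averaged -0.136, and LTR was lower in 10 of 10 libraries (exact two-sided sign-flip permutation test, p = 0.00195, the smallest possible, adjusted over 4 class comparisons p = 0.00391). With at least 20 reads the means were 0.164 in LTR and 0.242 in Simple_repeat (exact permutation, adjusted p = 0.00781). Depth was still unequal in that setting, at 39.8 reads in LTR and 28.1 in Simple_repeat (exact permutation, adjusted p = 0.00781). The part of depth in the fraction difference was not tested. Median depth was 31.6 ± 5.62 reads in LTR and 12.55 ± 2.29 in Simple_repeat, higher in LTR in 10 of 10 libraries (exact permutation, adjusted p = 0.00391). This pair of classes was chosen after the values were seen, and the libraries share sites and a control, so they are not independent.

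**Figure D2:**
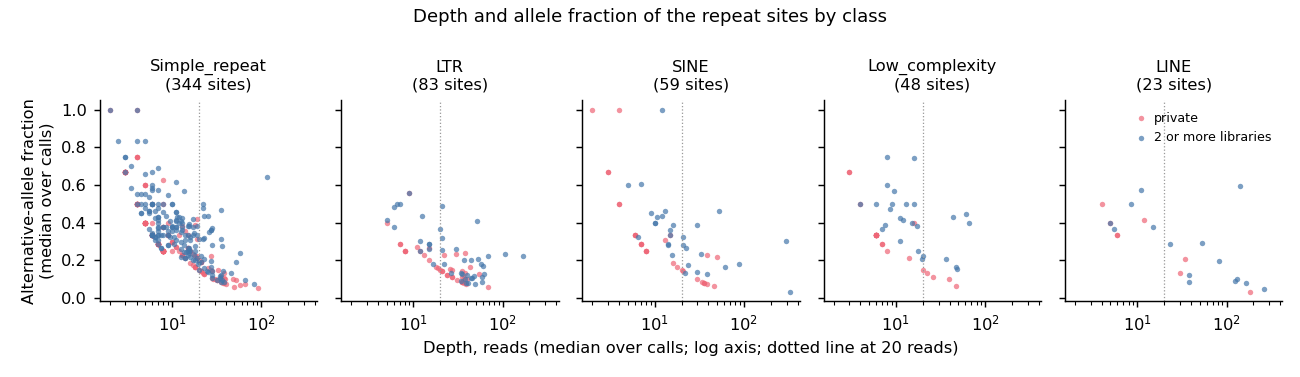
Each point is a site of 1 of the 5 largest classes, with its median depth over calls on the x axis (reads, log scale) and its median alternative-allele fraction on the y axis. Red points are private sites and blue points sites of 2 or more libraries. The Simple_repeat cloud lies mostly left of the dotted line at 20 reads and the LTR cloud mostly right of it at low fractions. At low depth the lower edge of each cloud is bounded by the least number of alternative reads.

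Transitions made up 60.4 ± 2.57% of repeat calls and 66.9 ± 1.54% of calls in unique sequence, lower in repeats in 10 of 10 libraries (exact sign-flip permutation, two-sided p = 0.00195, adjusted over 10 comparisons p = 0.00244). Against all other ESC calls, which include those in duplications, the difference was 0.0422 percentage points (exact permutation p = 0.939). In duplications alone the transition share was 52.4 to 55.2% per library, against 55.03 to 64.1% in repeats, a difference that was not tested. Over distinct sites, C>T made up 34.4% in repeats and 40.6% in unique sequence. T>A made up 13.3% in repeats and 7.998% in unique sequence. T>C made up 24.4% and 20.9%, and C>A 8.997% and 12.9%, in repeats and in unique sequence. The classes differed among themselves in this as well. C>T was 49.4% of LTR sites, 33.1% of Simple_repeat sites and 23.7% of SINE sites. T>A was 3.61% of LTR sites, 20.8% of Low_complexity sites and 23.7% of SINE sites. Per library, the transition share of LTR calls was 67.1 ± 6.92% and that of Simple_repeat calls 60.8 ± 3.25%, a difference that missed the threshold after adjustment (exact permutation, adjusted p = 0.0573). With at least 20 reads it passed, at 72.7% in LTR and 53.8% in Simple_repeat (exact permutation, adjusted p = 0.00781). A base quality of at least 30 (adjusted p = 0.0208) or at least 5 alternative reads (adjusted p = 0.0156) also passed (exact permutation). Without control alternative reads it missed the threshold (exact permutation, adjusted p = 0.0729). With 1 library left out the adjusted p ran from 0.031 to 0.115 (exact permutation). Without calls that had a neighbour within 10 kb the difference was 1.19 percentage points (exact permutation, adjusted p = 0.766).

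Repeat calls were read less deeply than other calls. The median depth per library averaged 15.75 ± 1.93 reads in repeats, 66.9 ± 7.08 in unique sequence and 79.7 ± 6.75 in duplications (SD, n = 10). Repeats were lower than either in 10 of 10 libraries (exact permutation, adjusted p = 0.00244 for each). Of the 1794 calls, 303 (16.9%) rested on 2 alternative reads, and 32.9 to 45.3% of a library's repeat calls had at least 20 reads, against 84.4 to 90.3% in unique sequence.

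The median base quality of the alternative allele was 37 in repeats and 36.8 in unique sequence (exact permutation p = 0.5). The difference of the mean qualities, repeat minus unique, was -0.557 (exact permutation p = 0.00195). Of the repeat calls, 65.5% had the highest quality of 37 and 121 were below 30. T>G calls had the lowest mean quality in both sets, at 34.6 in repeats and 33.3 in unique sequence. No repeat call had a dbSNP identifier, but the count for the other ESC calls is not given here, so this cannot be called particular to repeats.

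The alternative-allele fraction was higher in repeats when all calls were counted and lower when depth was limited. The library medians averaged 0.325 ± 0.0211 in repeats, 0.250 ± 0.00915 in unique sequence and 0.226 ± 0.01098 in duplications, with repeats higher than either in 10 of 10 libraries (exact permutation, adjusted p = 0.00244 for each). With at least 20 reads they averaged 0.189 in repeats and 0.220 in unique sequence, lower in repeats in 10 of 10 libraries (exact permutation, adjusted p = 0.00326). Against duplications the values were then 0.189 and 0.193 (exact permutation, adjusted p = 0.584). Without simple and low-complexity repeats, the averages were 0.247 in repeats and 0.250 in unique sequence (exact permutation, adjusted p = 0.732).

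Split by depth, the average library median was 0.441 in repeats and 0.452 in unique sequence at 2 to 9 reads, 0.349 and 0.391 at 10 to 19 reads, 0.207 and 0.325 at 20 to 49 reads, and 0.165 and 0.185 at 50 or more. Repeats thus had the lower average in each of the 4 depth ranges, which were not tested. At 2 to 9 reads the gap was smaller than the SD over libraries of either set (0.0372 in repeats and 0.0664 in unique sequence). A call of few reads cannot have a low fraction when 2 alternative reads are needed. Fractions over all repeat calls ran from 0.032 to 1, and 30 calls were at 1.

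The MEF control held an alternative read at 4.83 ± 1.35% of repeat calls and 4.63 ± 0.440% of calls in unique sequence, a difference of 0.201 percentage points (exact permutation p = 0.656). With at least 20 reads in the ESC library the shares were 8.82% and 5.22%, higher in repeats in 10 of 10 libraries (exact permutation, adjusted p = 0.00326). Against all other ESC calls, which include duplications, the share was 4.83% in repeats and 6.52% in the others, lower in repeats in 9 of 10 libraries (difference -1.69, exact permutation, adjusted p = 0.00977). Without simple and low-complexity repeats the shares were 3.62% in repeats and 4.63% in unique sequence (exact permutation, adjusted p = 0.0977). The direction thus turned with the setting. Control depth at repeat calls was low too, with a median of 19 to 21 reads, against 59 to 65 in unique sequence.

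**Figure D3:**
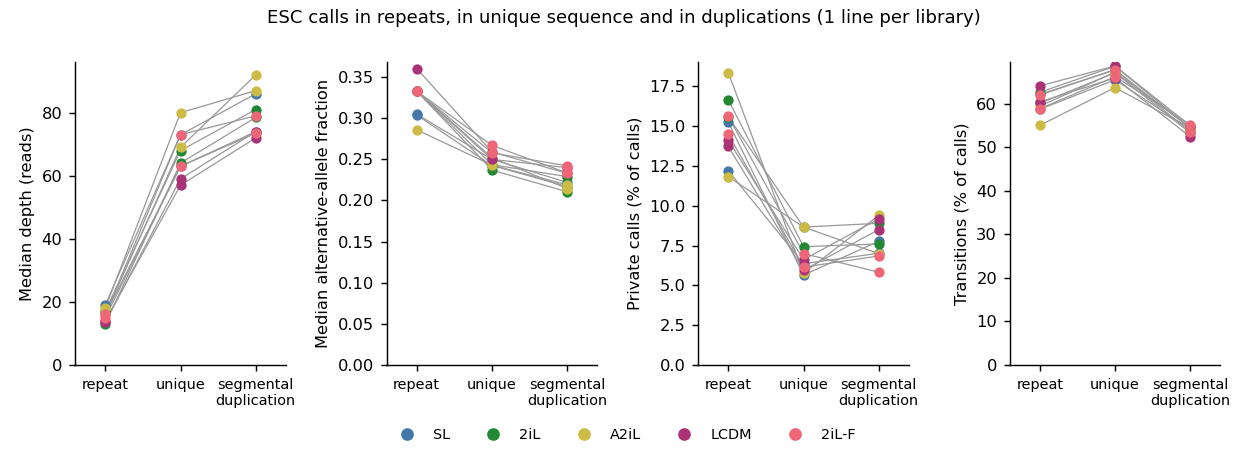
Each line is 1 ESC library, coloured by condition, at its calls in repeats (left), unique sequence (middle) and segmental duplications (right). The y axes give the median depth in reads, the median alternative-allele fraction, private calls as a percentage of calls and transitions as a percentage of calls. Repeats have the lowest depth and the highest fraction and private share in all 10 libraries.

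Sharing between libraries was examined next. A private site was called in 1 of the 10 libraries. Of the 578 repeat sites, 266 (46.0%) were private, against 32.1% in unique sequence and 31.4% in duplications. Called in all 10 libraries were 29 (5.02%), against 22.6% in unique sequence and 10.8% in duplications. The numbers called in 2, 3, 4, 5, 6, 7, 8 and 9 libraries were 78, 51, 43, 25, 28, 22, 14 and 22. Per library, 14.8 ± 1.97% of repeat calls were private, against 6.82 ± 1.11% in unique sequence and 7.80 ± 1.17% in duplications, with repeats higher in 10 of 10 libraries in both comparisons (exact permutation, adjusted p = 0.00244). The difference ended with at least 5 alternative reads, where the shares were 3.503% in repeats and 4.08% in unique sequence (exact permutation, adjusted p = 0.293).

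Depth moved with privacy. Private repeat calls had a median depth of 9 reads and those of sites called in all 10 libraries 32 reads. The median control depth was 15 and 37 reads at these sites. Among calls with at least 20 reads, the private share was 11.4% in repeats and 5.74% in unique sequence, higher in repeats in 9 of 10 libraries (exact permutation, adjusted p = 0.00558), and the difference from duplications was 4.98 percentage points (exact permutation, adjusted p = 0.00732). By depth range, the private share was 25.6 ± 5.02% in repeats and 24.1 ± 9.81% in unique sequence at 2 to 9 reads, 8.68 ± 4.34% and 7.99 ± 5.28% at 10 to 19, 14.5 ± 4.77% and 9.71 ± 3.70% at 20 to 49, and 4.62 ± 4.15% and 4.22 ± 1.03% at 50 or more (SD, n = 10). The part of depth in the private share was not tested beyond these values. The private share was 46.5% of Simple_repeat sites, 48.2% of LTR sites, 49.2% of SINE sites, 45.8% of Low_complexity sites and 34.8% of LINE sites. Between LTR and Simple_repeat it averaged 14.8% and 16.2% of calls per library (exact permutation, adjusted p = 0.639).

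Libraries also differed in the base called within a stretch. Of the 549 sites missing from at least 1 library, 130 had a call of such a library within 10 kb, and this held for 440 of 3986 pairs of a site and a library without it (11.04%). Among the 266 private sites, 62 had such a neighbour in some other library and 204 did not. Neighbour counts are not given here for unique sequence or duplications, so they cannot be called particular to repeats. The 578 sites lay in 530 repeat elements, of which 42 had several sites: 12 of 66 LTR elements (18.2%), 21 of 322 Simple_repeat elements (6.52%), 5 of 43 Low_complexity elements and 1 of 58 SINEs. No library had 2 calls in the same element, which the spacing of calls fixed in advance for any element shorter than 10 kb. Of the private sites 42 (15.8%) lay in an element that other libraries called at another base. Counted by element, 33 elements were called in all 10 libraries, against 29 sites.

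The 5 elements with 3 or more sites show this arrangement, and they were chosen after their values were seen. An LTR element in an intron of Sntg1, which encodes a syntrophin, was called in 10 of 10 libraries but at 3 bases (chromosome 1, first at 8893765). SL 5, A2iL 3, A2iL 5, LCDM 3 and 2iL-F 5 had T>C at the first base, with fractions of 0.5, 0.25, 0.321, 0.19 and 0.579. SL 3, 2iL 5, LCDM 5 and 2iL-F 3 had C>T 199 bp further on, with fractions of 0.243, 0.177, 0.306 and 0.204. 2iL 3 had G>A at 223 bp with a fraction of 0.237. The libraries of a condition agreed on the base only in A2iL.

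An intergenic LTR element on chromosome 16 (first call at 14488023) was called in 10 of 10 libraries at 3 bases, with fractions of 0.065 to 0.19. The A2iL and LCDM libraries had A>G at 80 bp, as did 2iL 3 and 2iL-F 3, the SL libraries and 2iL 5 had T>C at 194 bp, and 2iL-F 5 had A>G at the first base. A second element on that chromosome (first call at 5223242) was called in 9 libraries, 7 of them with G>A at 417 bp. An element on chromosome 14 (first call at 40215016) was called in 9 libraries at 4 bases, with fractions of 0.083 to 0.2. A simple repeat in an intron of Gm13177 on chromosome 4 (first call at 144617752) was called in 5 libraries at 3 bases. The control had 0 alternative reads at each of these bases, in 13 to 77 reads. In these 5 elements, a base not listed in a library cannot be taken as absent where another base of the element was called.

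**Figure D4:**
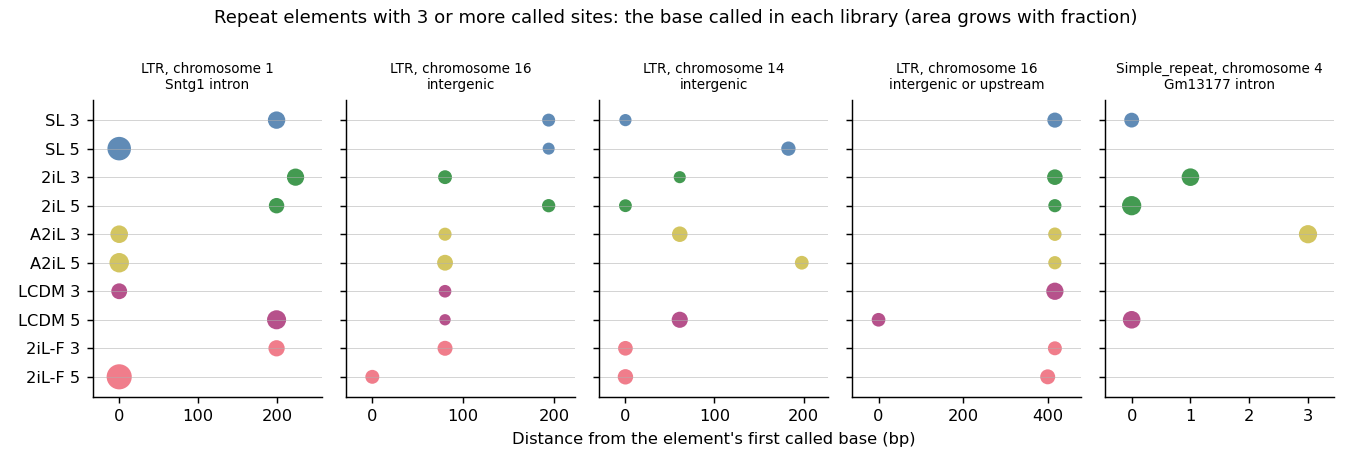
The 5 repeat elements with 3 or more called sites, 1 per panel. The x axis is the distance in bp from the first called base, each row is a library, the colour marks the condition, and the area of a point grows with the alternative-allele fraction. Each library has at most 1 point per panel because a list held at most 1 call in 10 kb. Libraries of a condition often stand at different bases.

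The sites called in all 10 libraries came from several classes: 12 in Simple_repeat, 4 in LINE, and 3 each in LTR, SINE, Low_complexity and Unknown, with 1 in Satellite. Their median fractions ran from 0.082 to 0.6405 per site, and 12 of the 29 were above 0.4 and 3 below 0.15. The range of a site's fractions across libraries had a median of 0.263.

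The deepest of them were 2 missense sites in KRAB zinc-finger genes, a large family of similar transcription repressors, both in the class Unknown. Zfp60 R40K (chromosome 7, position 27738388, exon 3) had fractions with a low of 0.078, a median of 0.101 and a high of 0.137 at 319 to 497 reads, against 0 of 369 control reads. Zfp65 E16A (chromosome 13, position 67710967, exon 2) had 0.093, 0.1215 and 0.135 at 351 to 448 reads, against 1 of 284 control reads. Protein changes are numbered on the first transcript listed. The synonymous change Zfp939 L21L (chromosome 7, position 39459875, exon 2) had 0.128, 0.1835 and 0.245. All 3 therefore stayed well below 0.5 in every library, and reads of similar genes cannot be told apart here.

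Intergenic sites spanned a wider range. A T>C change in a LINE on the X chromosome (position 79195426) had fractions with a low of 0.434, a median of 0.593 and a high of 0.68 at 125 to 179 reads. An A>C change in a simple repeat on chromosome 13 (position 12378694) had 0.55, 0.6405 and 0.721 at 103 to 154 reads, against 0 of 200 control reads, which allows up to 0.015. In contrast, a C>A change in a LINE on chromosome 3 (position 59767771) had 0.053, 0.082 and 0.112 at 143 to 190 reads. In every library the first 2 of these sites lay above the third.

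The intronic sites of this set lay between. Dscaml1, a neural cell adhesion gene, had fractions with a low of 0.194 (SL 5), a median of 0.4 and a high of 0.524 (LCDM 5) at chromosome 9, position 45750227, in a low-complexity tract, with 1 alternative read of 64 in the control. Mroh2a (chromosome 1, position 88256897, simple repeat) had 0.109, 0.19 and 0.357. Gm21119 (chromosome 8, position 19942905, LINE) had 0.156, 0.1965 and 0.305. Opn1mw, a cone opsin gene (X chromosome, position 74135092, LTR), had 0.122, 0.206 and 0.288, and tied in lowest depth with another LTR site on the X chromosome.

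**Figure D5:**
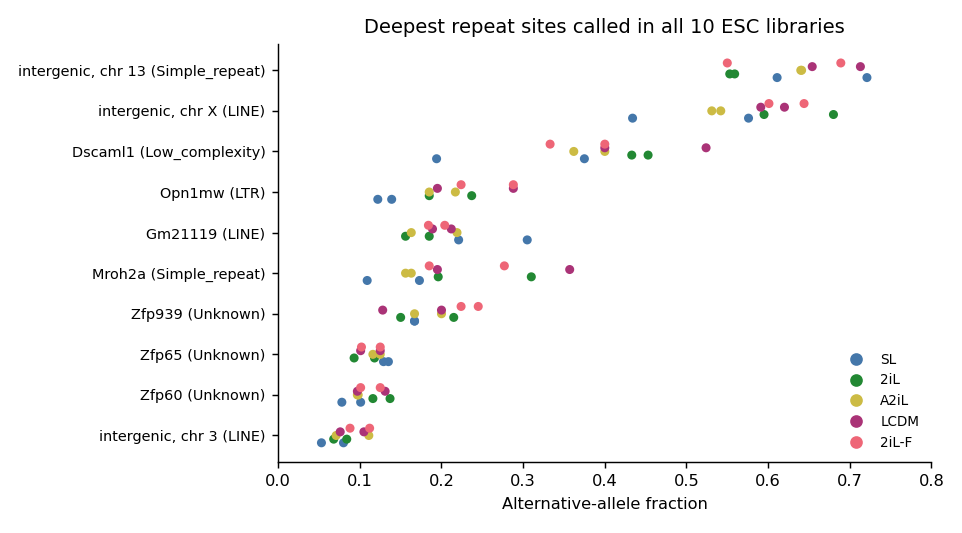
Alternative-allele fraction (x axis) of the 10 repeat sites with the greatest lowest depth among those called in all 10 ESC libraries, 1 site per row with its gene and repeat class. Each point is a library, coloured by condition. The points of the top pair of rows lie between 0.434 and 0.721 and those of the bottom 3 rows between 0.053 and 0.137.

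Hmgb1 D190E (chromosome 5, position 149048815, exon 5), in a low-complexity tract of a chromatin protein with an acidic tail, was the remaining missense site in 2 or more libraries. It had 25 of 64 reads in SL 3, 23 of 54 in LCDM 5, 30 of 57 in 2iL-F 3 and 30 of 65 in 2iL-F 5, with fractions of 0.391, 0.426, 0.526 and 0.462. The control had 0 of 54 reads, which allows a fraction of up to 0.0556. The other 6 libraries had neither this call nor another within 10 kb. A list gives reads only at its own calls, so the variant base cannot be taken as absent from these 6 libraries. Hmgb1 has processed pseudogenes elsewhere in the genome, and reads of such copies cannot be told apart here.

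Of the 18 exonic sites, 9 were missense and 9 synonymous, and 6 of the missense and 2 of the synonymous sites were private. The class Unknown held 5 of the 18, and 7 of the 18 lay in genes of the Zfp name. Shares of missense, private or Zfp sites among the other exonic ESC sites are not given here. The counts therefore cannot be called particular to repeats. Gtf2ird2 V500M (chromosome 5, position 134216399, exon 16), in the class DNA and in a gene known for a part derived from a DNA transposon, had 3 of 43 reads in SL 5 (exact 95% interval 0.0146 to 0.191). Zfp964 T36I (chromosome 8, position 69659366, exon 2) had 23 of 113 reads in 2iL 3 (0.134 to 0.290), and 3 other libraries had a call at another base of the element, within a span of 37 bases. Zfp354a H234N (chromosome 11, position 51069666, exon 5) had 4 of 21 reads in 2iL-F 3 (0.0545 to 0.419), against 0 of 11 control reads. A2iL and LCDM had no private exonic repeat site. These changes thus rested on 1 library each.

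Further exonic sites, named after their values were seen, lay in simple or low-complexity repeats of coding exons. Foxp2 Q156Q, in the glutamine tract of a transcription factor of speech and motor circuits (chromosome 6, position 15378022, exon 5), had fractions of 0.194 in 2iL 3, 0.071 in 2iL 5 and 0.097 in 2iL-F 5. In the acidic tract of Ubtf, which drives transcription of ribosomal RNA genes, D651E had 5 of 92 reads in 2iL 3. In Las1l, of ribosomal RNA processing, SL 3 had N540K (2 of 3 reads) and 6 other libraries had E554E, in the same low-complexity element within a span of 43 bases.

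Whether culture condition moved the number of repeat calls was asked last. The 2iL-F libraries had 192 and 200 calls. LCDM had 182 and 170, A2iL 185 and 169, 2iL 174 and 173, and SL 172 and 177. Both 2iL-F libraries lay above the 8 others. A test over the 5 conditions missed the threshold (exact permutation F test, p = 0.143, one-sided). 2iL-F had 196 ± 5.66 calls (SD, n = 2), 20.75 more than the mean of the other 4 conditions (exact permutation, two-sided p = 0.0222, the smallest of 45 splits), and adjusted over the 5 conditions p = 0.111, below which a single deviating condition cannot go. As a share of the list 2iL-F was higher by 1.07 percentage points (exact permutation, adjusted p = 0.111), with shares of 9.28 to 10.9% over all libraries.

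Private repeat calls numbered 30 and 29 in 2iL-F. LCDM had 25 and 24, A2iL 34 and 20, 2iL 29 and 27, and SL 21 and 27. Their test over the conditions missed the threshold too (exact permutation F test, p = 0.766). The lowest and the highest value were both from A2iL.

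Of the 5 repeat classes with at least 20 sites, none differed among conditions after adjustment. Low_complexity was the closest, at 26 and 23 calls in 2iL-F, 17 and 17 in LCDM, 18 and 18 in A2iL, 13 and 12 in 2iL, and 19 and 16 in SL. Its share was 12.5 ± 1.44% in 2iL-F and 7.204 ± 0.378% in 2iL, with the others between (exact permutation F test, p = 0.0201, adjusted over 5 classes p = 0.101). LTR shares were 13.6 to 15.1% on average in every condition (exact permutation p = 0.926).

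Of the 6 substitution classes, T>A differed among conditions. It made up 16.2 and 13.02% of repeat calls in A2iL, 9.38 and 9% in 2iL-F, 11.5 and 10% in LCDM, 9.20 and 9.83% in 2iL, and 11.6 and 12.99% in SL (exact permutation F test, p = 0.00317, one-sided, adjusted over 6 classes p = 0.0190). A2iL was highest and 2iL-F lowest on average, and both A2iL libraries lay above the 8 others, by a narrow margin over SL 5. The lowest adjusted p over the classes was 0.924 with at least 20 reads, 0.248 with a base quality of at least 30, 0.721 without calls that had a neighbour within 10 kb, and 0.0984 to 0.343 when any library but A2iL 5 was left out (exact permutation), so the call was lost under these settings.

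Sharing of repeat sites within a condition was compared with that between conditions. The Jaccard index (shared sites over the union) averaged 0.356 in the 5 same-condition pairs and 0.340 in the 40 other pairs, with 83 to 115 sites shared (exact two-sided permutation test, p = 0.0836). The pairs of 2iL-F (0.415) and A2iL (0.383) lay above the average of other pairs, and those of SL (0.337), 2iL (0.324) and LCDM (0.318) below it. In unique sequence the averages were 0.588 and 0.575, and in duplications 0.446 and 0.435. With at least 20 reads they were 0.395 and 0.354 in repeats, past the threshold (exact permutation p = 0.00212), and without simple and low-complexity repeats 0.394 and 0.397 (exact permutation p = 0.867). Of the 78 sites called in exactly 2 libraries, 15 were of 1 condition, which is 3 per same-condition pair and 1.575 per other pair. At calls shared by 2 libraries, 1.63% of 4110 pairs had identical reads and depth, so no list repeated another.

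Sites found in a condition's 2 libraries and nowhere else numbered 5 for 2iL-F, 2 for LCDM, 2 for A2iL, 1 for 2iL and 5 for SL. No counts of this kind, or of sites in exactly 2 libraries, are given here for unique sequence or duplications. The counts therefore cannot be called particular to repeats. In 2iL-F, a T>G change in an intergenic SINE on chromosome 5 (position 151282253) had 4 of 9 and 5 of 12 reads. Ubr1, a ubiquitin ligase gene (chromosome 2, position 120868164, simple repeat), had 3 of 24 and 4 of 25, and Cdh10, a cadherin gene (chromosome 15, position 18985007, LTR), 3 of 13 and 3 of 11. None of these 3 sites had a neighbouring call of a further library. In LCDM, Rnf39 (chromosome 17, position 36943592, SINE) had 7 of 18 and 4 of 23 reads, also without a neighbour.

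In SL, the synonymous Gpatch8 E837E (chromosome 11, position 102480200, exon 8) had 3 of 30 and 3 of 26 reads, and a site in the 3′ UTR of Dctd, a deoxycytidylate deaminase gene (chromosome 8, position 48140474), 4 of 43 and 3 of 25. In 2iL, Pltp, of phospholipid transfer (chromosome 2, position 164844286), had 2 of 8 and 2 of 7 reads. These calls had few alternative reads, and the exact 95% interval of the Pltp fraction in 2iL 3 ran from 0.0319 to 0.651.

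The others had neighbouring calls in further libraries. Asz1, a germ-cell gene of piRNA biogenesis (chromosome 6, position 18054492, simple repeat), had 7 of 15 and 8 of 12 reads in SL, and 3 further libraries were called in the same element, within a span of 3 bases. Tenm4, a teneurin gene (chromosome 7, position 96771843), had 13 of 28 and 9 of 22 reads in A2iL, and all 8 other libraries were called within a span of 4 bases. Pik3c2g (chromosome 6, position 139957568) had 4 of 28 and 3 of 11 reads in A2iL, with a neighbour in 2 libraries. By element, Tenm4 was thus called in all 10 libraries.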

How the data were processed

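Exome DNA of 10 ESC libraries was analysed, and the 8 tumour lists were not used here. BWA, SAMtools, Picard and the mm10 build are named in the submitters' processing notes. Which SNV caller ran, and which step left at most 1 ESC call in 10 kb, was not given in the sources used here. The deposited lists give, per the file headers, reads per allele, base quality, depth and alternative-allele fraction for the library and the MEF control. Their annotation gives a repeat score, element number and class without family names, so the planned description of repeat names and mobile families could not be made and classes were used as written. Positions are mm10, from 1, and substitutions were folded by strand into 6 classes.

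Members and lists were chosen with earlier results of these data known. Conditions were compared by exact permutation F tests, and sets by exact two-sided sign-flip permutation tests over 10 libraries, with Benjamini-Hochberg adjustment, in Python 3.11.15 with numpy 2.4.6, pandas 2.3.3 and SciPy 1.17.1, tested on simulated data. Named sites were protein changes in at least 2 libraries, up to 10 sites in all 10 libraries by lowest depth, up to 3 per condition in both its libraries alone, and 1 private exonic site per condition. Others are said to be chosen after their values were seen. 1 site that this rule names is not reported here. Alternatives were depth, base quality, alternative reads, control reads, neighbouring calls, repeat class, comparison set, replicate block and each library left out.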

Additional observations from a re-analysis of the deposited data

How the results depend on the processing

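Depth limits these values, since 32.9 to 45.3% of a library's repeat calls had at least 20 reads. The base quality mean and the combined setting (at least 20 reads and no call of another library within 10 kb) were chosen after seeing the data, as was the pair of repeat classes. Causes were not tested. With at least 20 reads, 234 sites (84 private) were left, the fraction difference was -0.0308 against unique sequence and -0.0033 against duplications, the control share difference was 3.599, the Jaccard difference was 0.0411 and the lowest substitution p was 0.924. With a base quality of at least 30 that p was 0.248. With at least 5 alternative reads, 234 sites (31 private) were left, the private share differences were -0.575 and -1.44, the control share difference 2.03 and the substitution p 0.908. Without control alternative reads the substitution p was 0.0635, and without neighbouring calls 0.721. Without simple and low-complexity repeats, 186 sites (84 private, 14 in all 10 libraries) were left, the Jaccard difference was -0.00270, the fraction differences -0.00305 (unique) and 0.0211 (duplications), the control share difference -1.01 and the substitution p 0.159. Against all other calls the transition difference was 0.0422 and the control share difference -1.69 (exact permutation, adjusted p = 0.00977). The mean base quality difference was -0.557. In the combined setting the p of private calls among conditions was 0.0169, the substitution p 0.593, the Jaccard difference 0.0368, the base quality difference -0.1, the fraction difference -0.0489 and the control share difference 4.86.

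With 1 library left out, the lowest substitution p ran from 0.0127 to 0.343, the Jaccard difference from -0.000870 (without 2iL-F 3) to 0.0275 (without LCDM 3) and the control share difference from -0.0778 (without LCDM 3) to 0.444, while the fraction difference stayed at 0.0722 to 0.0787 against unique sequence and 0.0962 to 0.103 against duplications. The Jaccard difference passed the threshold without 2iL 3, LCDM 3 or LCDM 5 (lowest exact permutation p = 0.0138). For LTR minus Simple_repeat, the private share difference was 1.24 with at least 20 reads, 1.56 with at least 5 alternative reads and ran from -2.80 (without 2iL-F 5) to 0.00135 (without LCDM 3) with 1 library left out. The transition share difference of these classes was 1.19 without neighbouring calls. The remaining 244 values of the main results kept their direction and their side of the threshold. Libraries with the same label number did not deviate together (r of -0.0228 to 0.0713 between conditions), so the number was not taken as a pairing. With the number as a replicate block the lowest substitution p was 0.15 (exact permutation), and no other call changed.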
